A study of Mus musculus with 12 samples.

Results

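The maturation difference between medullary thymic epithelial cells (mTECs) was described here in cells labelled as lacking Brg1. The 3 arrays that carry it were chosen by their titles from the 12 arrays of the study: a pair of arrays of Brg1-/- mTEChi, numbered 1 and 2, and a single array of Brg1-/- mTEClo, numbered 1. They were set beside the same 3 arrays of Brg1+/+ cells and, for some comparisons, the 3 arrays labelled Aire-/-. All cells came from thymi of C57BL/6 mice 4 weeks old. The sort took live cells without CD45 that carried Epcam, bound UEA and were low for Ly51, and split them by MHC class II into high (mTEChi) and low (mTEClo). The labels give the genotype only: they name no Cre driver, deleted exon or cross, do not say whether animals were pooled, and do not say that same-group arrays came from separate mice. The p-values therefore measure only the spread between these arrays, which may be technical.

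mTECs show developing T cells the products of genes that are otherwise confined to other organs, so that T cells reacting to them can be removed. As they mature, mTECs gain MHC class II and the costimulatory ligands CD80 and CD86, and many then express Aire, the transcriptional regulator that turns on a large share of these peripheral genes. Brg1, the product of Smarca4, is an ATPase of the SWI/SNF (BAF) complexes, which move nucleosomes and open chromatin at regulatory elements.

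Each array gave 1 intensity for each of 22154 genes, used on the log2 scale, on which 1 unit is a doubling. Array medians lay between 5.25 and 5.32 for the arrays numbered 1 and between 5.07 and 5.12 for those numbered 2, so the mTEChi arrays numbered 2 stood slightly below all others, and every mTEClo array is numbered 1. Across all genes the median difference of Brg1-/- mTEChi from Brg1-/- mTEClo was -0.09. Smarca4 stood at 5.88 and 5.44 in Brg1-/- mTEChi and 5.47 in Brg1-/- mTEClo, against 6.13 and 6.89 in Brg1+/+ mTEChi and 5.95 in Brg1+/+ mTEClo. Each Brg1-/- reading lay below every Brg1+/+ reading. Where this probe set lies relative to the deleted part of the gene is not known here, so it is no check of the labels.

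The label of the cells was set against their markers first. Cd80, which encodes a costimulatory ligand, read 9.27 and 9.48 in Brg1-/- mTEChi, against 6.73 in Brg1-/- mTEClo. The difference was 2.65 (SE 0.534, 2 arrays against 1), with limma adjusted p = 0.12. With the array number as a block it was 2.31 with adjusted p = 0.0201. The block removes a shift of the arrays numbered 2, estimated from the Brg1-/- and Brg1+/+ mTEChi arrays together. Array 1 alone lay 2.54 above mTEClo. Cd86, the related ligand, read 7.87 and 7.09 in Brg1-/- mTEChi, against 5.03 in Brg1-/- mTEClo. Its difference of 2.45 (SE 0.478) had adjusted p = 0.11 without the block and 0.00436 with it. Both Brg1-/- mTEChi arrays thus lay above the mTEClo array for both ligands, in the direction of the label, and both genes passed with the block only. Aire itself read 8.35 and 8.75 in Brg1-/- mTEChi, against 6.82 in Brg1-/- mTEClo. That difference of 1.73 (SE 0.66) did not pass, with adjusted p = 0.625 and 0.19 with the block.

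In Brg1-/- cells, genes known from other organs were among the largest rises in mTEChi, and few genes fell, among them the smooth muscle gene Tagln and the chemokine gene Ccl11. At a Benjamini-Hochberg adjusted p under 0.05 (limma, 2 arrays against 1), 129 of the 22154 genes were called, which is 0.582% of them. Of these, 120 were higher in Brg1-/- mTEChi (0.542% of all genes) and 9 lower (0.0406%). The 120 had a median difference of 3.28, from 1.83 to 6.71, and the 9 a median of -2.34, from -3.40 to -1.85. For all 129 both mTEChi arrays lay on the same side of the mTEClo array, which a call on these same arrays favours. By size alone, 251 genes (1.13%) were at least 4-fold above mTEClo in both mTEChi arrays and 23 (0.104%) at least 4-fold below.

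The counts depended on how the array number was treated. Same-numbered mTEChi arrays deviated together in all 6 pairs of groups, and with the number as a block within each line 615 genes were called (2.78%), 479 higher (2.16%) and 136 lower (0.614%), among them all 129. With 1 mTEChi array the test had little left: 3 genes were called without Brg1-/- mTEChi replicate 1 and 0 without replicate 2, where 1156 genes had an unadjusted p under 0.05. For scale, 0.05 of all genes is 1108. Because the mTEClo array is numbered 1, the like-numbered arrays can be compared directly. In array 1 alone 117 of the 120 genes were at least 4-fold above mTEClo. The smallest of the 120 differences was 1.78 and the median 3.25, against a median of 3.19 for array 2. The 120 were called on these same arrays, so large differences in array 1 were largely fixed by the choice. The count also drew on the spread in other groups, being 39 without either Aire+/+ mTEChi array, 54 without either array labelled Aire-/- mTEChi and 91 without either Brg1+/+ mTEChi array.

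Among the largest rises were secreted lipocalins, antimicrobial peptides and hormones of other organs. The urinary pheromone-binding protein gene Mup6 read 8.51 and 8.65 in Brg1-/- mTEChi, against 3.33 in Brg1-/- mTEClo. Its difference was 5.25 (SE 0.761, adjusted p = 0.0412). Mup20, which encodes the male urinary pheromone darcin, read 8.05 and 7.21 in Brg1-/- mTEChi, against 2.85 in mTEClo, a difference of 4.78 (adjusted p = 0.0411). The odorant-binding protein gene Obp2a read 8.25 and 9.37 in Brg1-/- mTEChi, against 4.14 in mTEClo, and differed by 4.67 (adjusted p = 0.0492). These 3 genes were dim in mTEClo of both genotypes, and every mTEChi array lay above the mTEClo array of its genotype. Of all genes 26.2% did so in Brg1-/- and 25.3% in Brg1+/+ cells. In Brg1-/- cells the rule for naming genes required it. In Brg1+/+ cells Mup6 differed by 6.53, Mup20 by 5.03 and Obp2a by 5.01.

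Defa21, an antimicrobial alpha-defensin of intestinal Paneth cells, read 11.42 and 11.13 in Brg1-/- mTEChi, against 7.0 in Brg1-/- mTEClo (difference 4.28, SE 0.351, adjusted p = 0.00775). Gkn2, a gastrokine of the stomach lining, read 9.17 and 9.08 in Brg1-/- mTEChi, against 4.78 in mTEClo (difference 4.35, SE 0.396, adjusted p = 0.00889). Pmch, the precursor of the hypothalamic melanin-concentrating hormone, read 8.64 and 8.76 in Brg1-/- mTEChi, against 4.39 in mTEClo (difference 4.31, SE 0.376, adjusted p = 0.00775). For each of them the mTEChi arrays lay closer to each other than either did to mTEClo. They were named for large differences on these same arrays, so this closeness is a description and no further check.

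Blood cell genes also stood among the largest rises. Prg3, a granule protein gene of eosinophils, had the smallest p of the named rises, at 10.39 and 10.45 in Brg1-/- mTEChi and 5.48 in Brg1-/- mTEClo. It differed by 4.94 (SE 0.3, adjusted p = 0.00448). Ly6g, a surface antigen of neutrophils, read 9.39 and 9.07 in Brg1-/- mTEChi, against 4.64 in mTEClo, and differed by 4.59 (adjusted p = 0.0282). The cytokine gene Il9 read 8.81 and 8.94 in Brg1-/- mTEChi, against 4.22 in mTEClo, and differed by 4.66 (adjusted p = 0.0399). In Brg1+/+ cells Il9 read 9.45 and 8.04 in mTEChi, against 6.80 in mTEClo, so the level in mTEChi was similar and the level in mTEClo was the higher one. Its Brg1+/+ difference of 1.95 did not pass (adjusted p = 0.458), and the gap between the genotypes was not called.

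The largest rise of all was that of AA623943, which read 9.60 and 9.53 in Brg1-/- mTEChi, against 2.86 in Brg1-/- mTEClo (difference 6.71, SE 0.563, adjusted p = 0.00775). AY761185 read 10.33 and 10.45 in Brg1-/- mTEChi, against 4.72 in mTEClo (difference 5.67, adjusted p = 0.0278). Klk1b1, a glandular kallikrein, read 9.73 and 9.52 in Brg1-/- mTEChi, against 5.0 in mTEClo (difference 4.63, SE 0.332, adjusted p = 0.00732). Over the 120 higher calls the median level was 8.83 in Brg1-/- mTEChi and 5.45 in Brg1-/- mTEClo, and 45 of the 120 read under 5 in mTEClo, where array background compresses a fold change.

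A pair of the 9 falls were of genes of actin-binding proteins. Tagln, which encodes the actin-binding smooth muscle protein transgelin, read 6.31 and 7.10 in Brg1-/- mTEChi, against 9.69 in Brg1-/- mTEClo. It fell by 2.99 on the log2 scale (SE 0.445, adjusted p = 0.0448). Cald1, which encodes the actin-binding protein caldesmon, read 5.48 and 5.66 in Brg1-/- mTEChi, against 7.42 in mTEClo, and fell by 1.85 (adjusted p = 0.0498). Ctla2a, a cathepsin inhibitor homologous to a protease propeptide, read 6.69 and 7.46 in Brg1-/- mTEChi, against 9.45 in mTEClo, and fell by 2.38 (adjusted p = 0.0482). Ccl11, the eosinophil attractant eotaxin, read 7.41 and 7.53 in Brg1-/- mTEChi, against 9.70 in mTEClo, and fell by 2.23 (adjusted p = 0.0379). In Brg1+/+ cells the difference was -2.66 for Tagln, -1.98 for Cald1, -3.03 for Ctla2a and -1.80 for Ccl11.

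Lrmp, a membrane protein gene of tuft cells, read 6.76 and 6.64 in Brg1-/- mTEChi, against 8.71 in Brg1-/- mTEClo, and fell by 2.01 (SE 0.274, adjusted p = 0.0384). The sulfotransferase gene Sult5a1 read 5.86 and 6.03 in Brg1-/- mTEChi, against 7.82 in mTEClo, and fell by 1.88 (adjusted p = 0.0498). Tas2r140, a bitter taste receptor gene, read 2.14 and 1.66 in Brg1-/- mTEChi, against 4.62 in mTEClo, and fell by 2.72 (adjusted p = 0.0294). In Brg1+/+ cells Tas2r140 read 2.01 and 2.29 in mTEChi and 2.27 in mTEClo, so 1 dim Brg1-/- mTEClo reading carries this fall. The other 2 falls were of a small RNA gene and a Y-linked gene. Among genes that did not pass without the block, and leaving out the classes that were not named, Tas2r123 had the widest gap below mTEClo, at 3.28 and 1.98 in Brg1-/- mTEChi and 6.90 in Brg1-/- mTEClo.

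**Figure D1:**
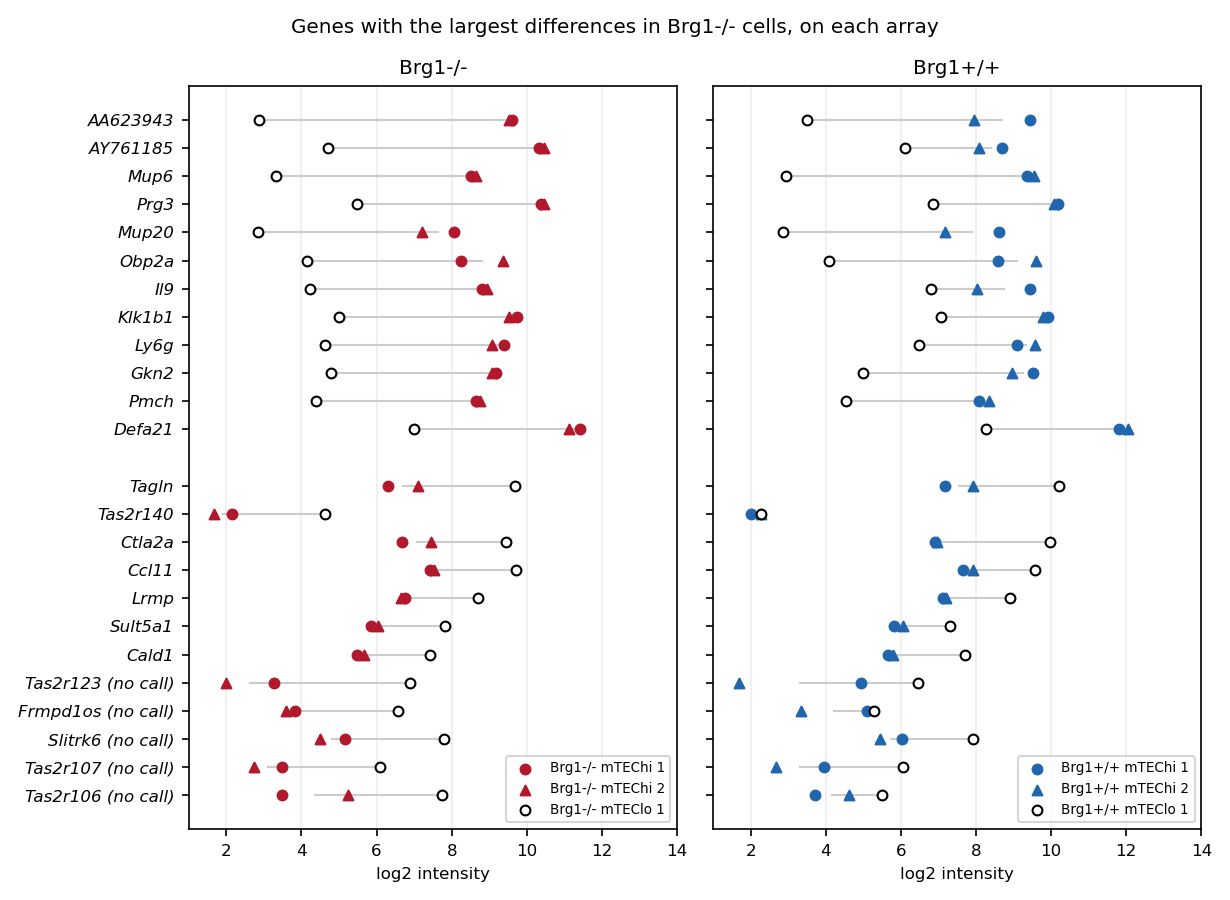
Log2 intensity on each array (horizontal) of the named genes with the largest rises (upper rows) and falls (lower rows), in Brg1-/- cells on the left and Brg1+/+ cells on the right. Filled circles and triangles are mTEChi arrays 1 and 2, open circles the single mTEClo array, and grey lines join mTEClo to the mTEChi mean; genes marked "no call" did not pass without the block. Tas2r140 sits at 4.62 in Brg1-/- mTEClo and at 2.27 in Brg1+/+ mTEClo, and in the upper rows all mTEChi arrays lie to the right of mTEClo in both genotypes.

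Since these genes moved together, their promoters were read for features they share. Of the 120 higher calls, 101 had a promoter in RefSeq (build GRCm38.p6), covering 250 bases before to 50 after the transcript start. TATAAA, the core letters of the TATA box that positions transcription about the start site, began between -40 and -20 on the coding strand, counting the first transcribed base as 0, in 24 of the 101 (23.8%), against 447 of 16912 promoters of all genes tested (2.64%). On either strand and anywhere in the 300 bases it was found in 31 (30.7%), against 2179 (12.9%). The promoters also held few CpG dinucleotides, with a median of 3 against 13 over all genes, and 5.94% of them had 10 or more, against 57.7%. For the 384 promoters of genes higher with the block, 15.9% had TATAAA in the window and the median CpG count was 3. For the 92 promoters of genes lower with the block, 3.26% had TATAAA in the window and the median CpG count was 9. Neighbouring family members share sequence, so these promoters are not independent of each other, and no test was made.

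The 70 bases before and 10 after the start are shown for 4 of the named rises with TATAAA in the window, for 1 with it farther upstream and for 2 without it, with TATAAA in capitals.
Mup6 (chr4:60003411-60003490, plus strand): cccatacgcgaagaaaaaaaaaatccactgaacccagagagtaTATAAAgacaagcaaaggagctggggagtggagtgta
Defa21 (chr8:21025475-21025554, plus strand): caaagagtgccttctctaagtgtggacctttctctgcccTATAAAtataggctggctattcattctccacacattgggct
Pmch (chr10:88091002-88091081, plus strand): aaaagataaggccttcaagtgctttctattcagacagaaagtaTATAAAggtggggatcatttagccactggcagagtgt
Gkn2 (chr6:87373295-87373374, plus strand): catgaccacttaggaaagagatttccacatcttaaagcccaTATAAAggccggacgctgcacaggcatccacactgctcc
Obp2a (chr2:25700004-25700083, plus strand): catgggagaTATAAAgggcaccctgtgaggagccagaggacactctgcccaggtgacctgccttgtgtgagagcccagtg
Klk1b1 (chr7:43966681-43966760, plus strand): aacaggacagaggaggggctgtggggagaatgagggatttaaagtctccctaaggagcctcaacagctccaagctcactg
Prg3 (chr2:84988145-84988224, plus strand): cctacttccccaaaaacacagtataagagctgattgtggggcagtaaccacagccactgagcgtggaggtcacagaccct
The first base of TATAAA lay at -27 in Mup6 and Pmch, at -29 in Gkn2, at -31 in Defa21 and at -61 in Obp2a. A match describes the letters only.

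**Figure D2:**
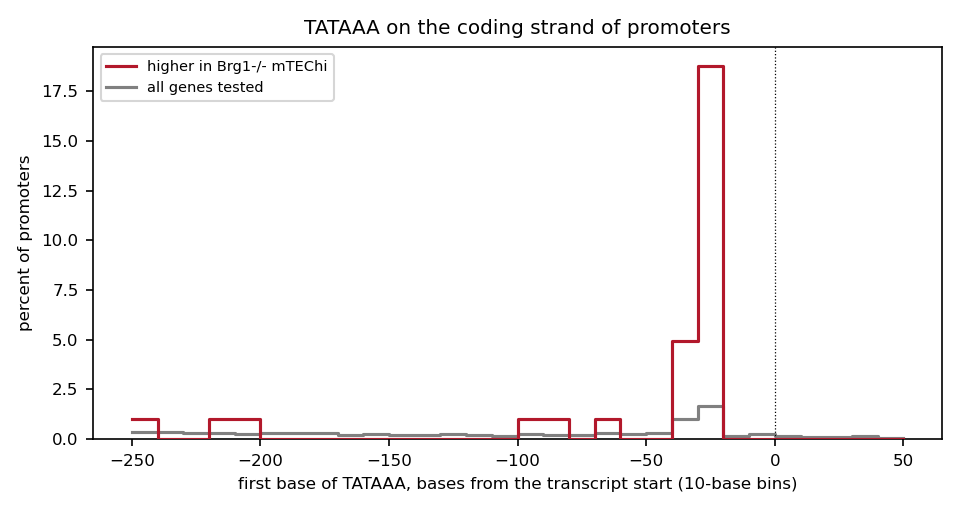
Percent of promoters (vertical) with TATAAA on the coding strand starting in each 10-base bin of distance from the transcript start (horizontal, 0 is the first transcribed base), for the 101 promoters of genes higher in Brg1-/- mTEChi (red) and for the 16912 promoters of all genes tested (grey). Both lines peak just before the start, and the red line is the higher there: 23.8% of its promoters have a first base between -40 and -20, against 2.64%.

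By tissue of origin, the rises in Brg1-/- mTEChi were spread over many organs, with the largest shares, among the lists made, in a pair of secretory families. The lists were chosen with earlier results of these data known, so high shares were favoured by the choice and are descriptions. Against the background of 0.542% of all genes called higher and a median of -0.09, 6 of 11 measured Klk1b kallikreins, proteases of the salivary gland, were higher and 0 lower, with a list median of 2.85. With the block 8 were higher, where 2.16% of all genes were. That share, and 0.614% for lower calls, is the background of every count with the block in the lists that follow. Klk1b9 read 10.68 and 10.68 in Brg1-/- mTEChi, against 6.96 in Brg1-/- mTEClo (difference 3.72, adjusted p = 0.0113). Klk1b11 read 12.35 and 12.02, against 8.90 (difference 3.29, adjusted p = 0.0162). All 11 had both mTEChi arrays above mTEClo, where 26.2% of all genes did. Of the 13 measured genes in the list of major urinary and odorant-binding proteins, which also holds other lipocalins, 5 were higher and 0 lower (8 with the block). The list median was 2.92. Besides Mup6, Mup20 and Obp2a these were the lipocalins Lcn8, at 8.90 and 9.63 in Brg1-/- mTEChi and 6.13 in mTEClo, and Lcn3, at 6.76 and 6.38 in Brg1-/- mTEChi and 3.65 in mTEClo. The members of these families are similar in sequence, and a probe set may read several of them.

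Digestive organ genes followed. Of 20 pancreas genes 5 were higher and 0 lower (10 with the block), with a median of 1.56. The regenerating protein gene Reg1 read 10.87 and 10.05 in Brg1-/- mTEChi, against 6.59 in Brg1-/- mTEClo (difference 3.87, adjusted p = 0.0129). The peptide hormone genes Ppy and Pyy had differences of 3.76 and 3.17 (adjusted p = 0.0411 and 0.0281), and Reg3b, an antibacterial lectin gene, one of 2.84 (adjusted p = 0.0378). Of 26 intestine and stomach genes 8 were higher and 0 lower (11 with the block), with a median of 1.29. Defa22, a further Paneth cell defensin, read 10.81 and 10.93 in Brg1-/- mTEChi, against 7.10 in mTEClo (difference 3.77, adjusted p = 0.00775). Fabp2, the intestinal fatty acid-binding protein gene, read 9.93 and 9.76 in Brg1-/- mTEChi, against 6.22 in mTEClo (difference 3.63, adjusted p = 0.0328).

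Gland, liver and nervous system genes were also among the rises. Of 20 salivary, lacrimal and mammary gland genes 4 were higher and 0 lower (7 with the block), with a median of 1.02. Among them Dcpp3, a secreted protein of salivary demilune cells, read 11.22 and 11.07 in Brg1-/- mTEChi, against 7.41 in mTEClo (difference 3.74, adjusted p = 0.00775), and the milk protein gene Csn2 read 12.83 and 12.91, against 9.99 (difference 2.88, adjusted p = 0.0162). Of 25 liver plasma protein genes 3 were higher and 0 lower (9 with the block), with a median of 0.65: the thyroid hormone carrier Ttr (difference 2.67, adjusted p = 0.0294) and the acute-phase proteins Saa3 (2.27, adjusted p = 0.0482) and Saa2 (2.52, adjusted p = 0.0498). Of 22 brain, retina and lens genes 3 were higher and 0 lower (6 with the block), with a median of 0.65. Besides Pmch these were the lens crystallin gene Crygs, at 8.10 and 8.02 in Brg1-/- mTEChi and 3.91 in mTEClo (difference 4.15, adjusted p = 0.0179), and the glial calcium-binding protein gene S100b (difference 2.56, adjusted p = 0.0399).

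Of 15 testis and oocyte genes 1 was higher and 0 lower (5 with the block), with a median of 1.09. It was Zar1, a maternal factor of the egg, at 10.24 and 10.43 in Brg1-/- mTEChi and 6.61 in Brg1-/- mTEClo (difference 3.73, adjusted p = 0.00775). Of 16 cystatins, inhibitors of cysteine proteases, 1 was higher (6 with the block), namely Cst10 with a difference of 3.74 (adjusted p = 0.00988). Of 14 mast cell and granule proteases 2 were higher (4 with the block), Mcpt2 by 4.15 (adjusted p = 0.00775) and Cma1 by 3.02 (adjusted p = 0.0399). Neither of the last 2 lists had a member that was lower. Of 21 striated muscle genes 0 were called with or without the block. Their median was 0.10, and the fast troponin gene Tnni2 had the smallest p, at 9.42 and 9.43 in Brg1-/- mTEChi and 7.90 in Brg1-/- mTEClo (difference 1.53, adjusted p = 0.328).

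Among the mTECs' own maturation genes the differences were of moderate size. None of 16 maturation and costimulation genes passed without the block, and 4 were higher with it, Cd70, Cd86, Cd80 and Il7r, with a list median of 1.15. Cd70, a costimulatory ligand of the TNF family, read 8.75 and 10.08 in Brg1-/- mTEChi, against 6.03 in Brg1-/- mTEClo (difference 3.39, adjusted p = 0.105, and 0.00771 with the block). The cells were sorted on MHC class II, so the 11 measured genes of that pathway show the gate and not a finding: their median was 0.95, and H2-Eb1 read 11.84 and 12.29 in Brg1-/- mTEChi, against 11.12 in mTEClo. Of 18 chemokine and cytokine genes 1 was higher and 0 lower (5 with the block), with a median of 0.85. It was Ccl17, a chemokine that draws T cells, at 9.47 and 9.59 in Brg1-/- mTEChi and 6.26 in mTEClo (difference 3.27, adjusted p = 0.0411).

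Tuft cell genes lay on the mTEClo side. Of 18 measured genes of tuft cells, the chemosensory epithelial cells that release IL-25, 1 was lower (Lrmp) and 0 higher, where 0.0406% of all genes were lower. With the block 8 were lower, where 0.614% of all genes were. All 18 had both Brg1-/- mTEChi arrays below mTEClo, where 39.7% of all genes did, and the list median was -1.45. Il25 read 6.51 and 6.23 in Brg1-/- mTEChi, against 8.36 in Brg1-/- mTEClo (difference -1.99, adjusted p = 0.0705, and 0.0251 with the block). Trpm5, the taste transduction channel gene, read 6.45 and 6.37 in Brg1-/- mTEChi, against 7.91 in mTEClo (difference -1.50, adjusted p = 0.202, and 0.0686 with the block). Summed over the list, tuft cell intensity was 2046 and 1947 in Brg1-/- mTEChi, against 7011 in mTEClo. In such sorted populations fewer cells of a type and less RNA per cell cannot be told apart. Of 35 bitter taste receptors 1 was lower (Tas2r140) and 0 higher, 9 were lower with the block, and the median was -0.88. Of 17 mTEClo and progenitor genes 2 were lower, Tagln and Ctla2a, and 0 higher (5 lower with the block), with a median of -0.78.

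For 9 further lists 0 members were called without the block: microfold cells, cornified keratinocytes, the NF-kB pathway, the interferon response, the cell cycle, SWI/SNF subunits, cortical TECs, epithelial identity, and immediate early and heat shock genes. Their medians lay between -0.43 and 0.15. With the block, 1 gene each was higher in the keratinocyte, NF-kB, interferon and cortical TEC lists, and 1 was lower in the interferon list. The 24 measured SWI/SNF subunits, the partners of Brg1, had a median of -0.36, and the smallest p among them was that of Phf10, at 6.75 and 6.71 in Brg1-/- mTEChi and 7.56 in Brg1-/- mTEClo (adjusted p = 0.782).

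Markers of other cells that the sort could hold moved as well. Over 15 thymocyte genes the summed intensity was 963 and 2744 in Brg1-/- mTEChi, against 799 in Brg1-/- mTEClo, the high sum being that of array 2, where Cd3d read 10.12. Over 15 fibroblast and endothelium genes it was 1630 and 1641 in Brg1-/- mTEChi, against 3135 in mTEClo. Dcn, a matrix proteoglycan gene of fibroblasts, read 9.79 and 9.66 in Brg1-/- mTEChi, against 10.92 in mTEClo. For 16 dendritic cell, macrophage and B cell genes the sums were 4640 and 5702 in Brg1-/- mTEChi, against 5524 in mTEClo, and for 13 cortical TEC genes 2193 and 2295, against 2245. Without the block 0 genes of these 4 lists were called, and with it Batf3 and Ccl25 were higher and Emcn and Lum lower. In Brg1-/- cells the fibroblast sum moved together with the falls of Tagln, Cald1 and Ccl11, and the thymocyte sum with array 2. In cells labelled Aire-/- the fibroblast and endothelium sum was 1990 and 2037 in mTEChi, against 2191 in mTEClo. The differences there were -3.39 for Tagln, -2.14 for Cald1 and -2.81 for Ccl11. In Brg1+/+ cells the sum was 1284 and 1704 in mTEChi, against 2329 in mTEClo. The part of fibroblasts and thymocytes in the results was not tested.

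**Figure D3:**
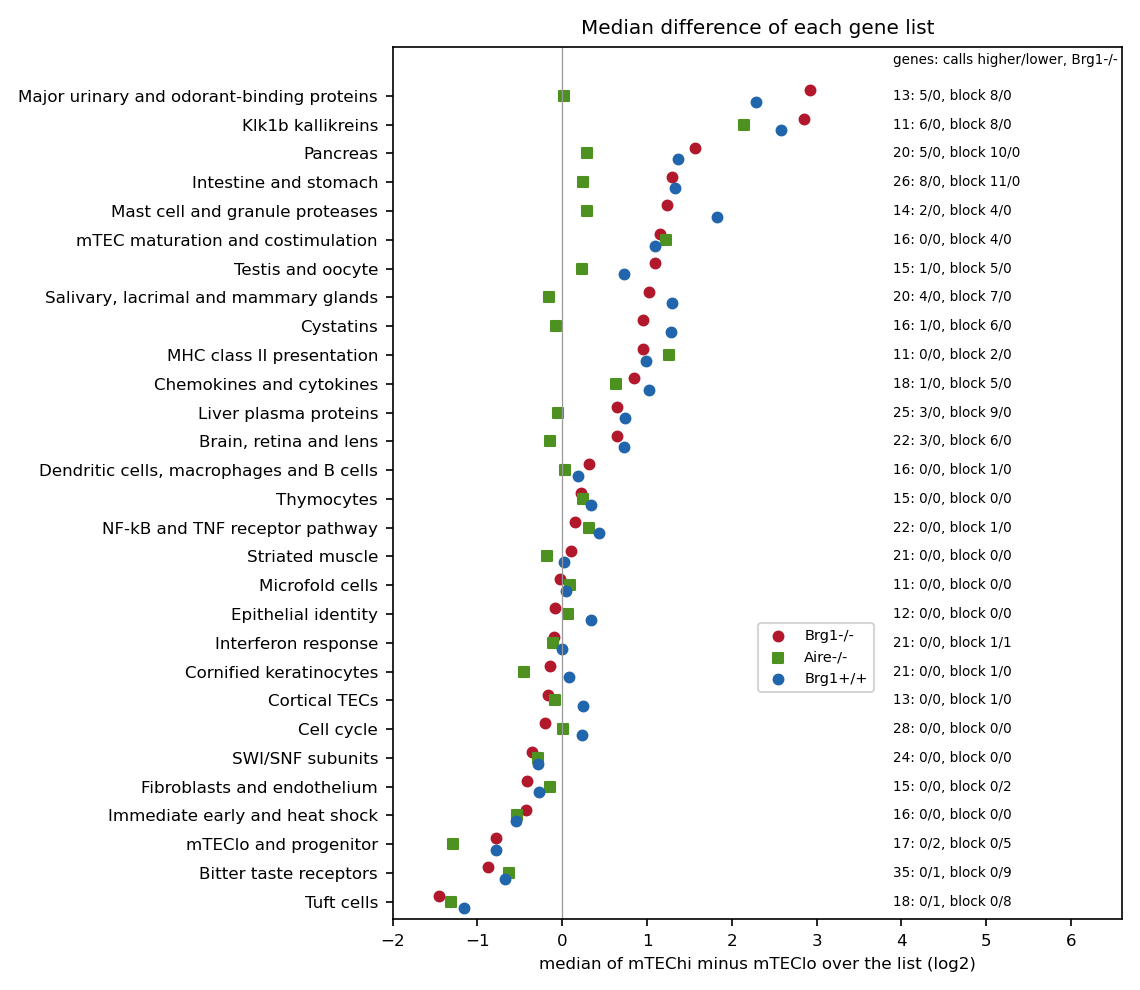
Median log2 difference of mTEChi from mTEClo (horizontal) over each of the 29 gene lists, for Brg1-/- (red circles), arrays labelled Aire-/- (green squares) and Brg1+/+ (blue circles). Numbers at the right give the genes measured and how many were called higher and lower in Brg1-/- cells, without and with the replicate block. The 2 top lists have Brg1-/- medians of 2.92 and 2.85, and the tuft cell list lies lowest at -1.45.

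The same comparison was then made in Brg1+/+ cells, to see which of these differences the knockout and wild type have in common. The genotypes share no array, but their calls are not independent. A common fit gave each gene the same SE in both genotypes, so a gene of small spread is favoured in both lists. With the block, the shift removed was also estimated from the mTEChi arrays of both genotypes. The counts of shared calls are therefore descriptions. In Brg1+/+ cells 80 genes were called, 75 higher (0.339%) and 5 lower (0.0226%), and with the block 552 (2.49%), 429 of them higher (1.94%) and 123 lower (0.555%). Without the block, calls were 0.361% of all genes. Of the 120 higher calls in Brg1-/- cells 57 were also called in Brg1+/+ cells, which is 47.5% of the Brg1-/- list and 76% of the Brg1+/+ list. With the block 299 higher calls were shared (62.4% and 69.7%) and 55 lower calls (40.4% and 44.7%). Every one of the 120 genes had both Brg1+/+ mTEChi arrays above Brg1+/+ mTEClo, where 25.3% of all genes did, and their median Brg1+/+ difference was 2.51. Conversely, all 75 higher calls of Brg1+/+ cells had both Brg1-/- mTEChi arrays above Brg1-/- mTEClo. Their median difference was 3.43 in Brg1+/+ cells and 3.32 in Brg1-/- cells. Each list was chosen for large differences in its own genotype, which favours the larger median there. Of the 9 lower calls in Brg1-/- cells 1 was also called in Brg1+/+ cells without the block, and 7 had both Brg1+/+ mTEChi arrays below Brg1+/+ mTEClo, where 40.2% of all genes did. Of the 5 lower calls in Brg1+/+ cells 4 had both Brg1-/- mTEChi arrays below Brg1-/- mTEClo, where 39.7% did.

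The sizes for single genes are given side by side, first for genes with the largest differences in Brg1+/+ cells. The stefin gene Csta3 stood at 9.21 and 8.49 in Brg1-/- mTEChi, against 4.75 in Brg1-/- mTEClo, a difference of 4.10 (adjusted p = 0.0672, and 0.01 with the block). In Brg1+/+ cells it had the largest rise of all, 7.37, above a mTEClo reading of 1.80. Defb8, a beta-defensin gene, read 7.54 and 7.93 in Brg1-/- mTEChi, against 5.94 in Brg1-/- mTEClo, and its difference in Brg1+/+ cells was 5.31. The protease inhibitor homologue Ctla2b read 5.30 and 5.06 in Brg1-/- mTEChi, against 6.35 in Brg1-/- mTEClo, a difference of -1.17 that did not pass (adjusted p = 0.643), and it fell by 3.89 in Brg1+/+ cells. Of the largest Brg1-/- rises, AY761185 differed by 5.67 in Brg1-/- cells and by 2.29 in Brg1+/+ cells, and Prg3 by 4.94 in Brg1-/- cells and by 3.27 in Brg1+/+ cells. AY761185 read 8.70 and 8.08 in Brg1+/+ mTEChi, against 6.10 in Brg1+/+ mTEClo, and Prg3 10.18 and 10.07, against 6.86. Across the 22154 genes the differences in Brg1-/- and Brg1+/+ cells had Pearson's r = 0.716 and Spearman's rho = 0.575, and with arrays numbered 1 alone r = 0.631 and rho = 0.417. These describe genes, which are not independent replicates, and both genotypes share array numbers and the sort.

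The difference between the genotypes was also tested directly, as the Brg1-/- difference minus the Brg1+/+ difference. Under limma 0 genes were called, with or without the block, and 296 had an unadjusted p under 0.05 without it (1133 with it), where 0.05 of all genes is 1108. The median 95% interval of this difference reached 1.31 to either side over all genes, and for the 120 higher calls between 0.88 and 2.52. The absence of calls therefore does not show that the genotypes are alike. The smallest unadjusted p was that of Cdca7l, a cell cycle-associated gene, at 5.23 and 5.18 in Brg1-/- mTEChi and 6.74 in Brg1-/- mTEClo, against 5.52 and 5.79 in Brg1+/+ mTEChi and 4.44 in Brg1+/+ mTEClo (difference of differences -2.75, adjusted p = 1). Zar1 had 2.24 and Prg3 1.68 in the same measure, both also with adjusted p = 1. In mTEClo, Zar1 read 6.61 in Brg1-/- and 9.26 in Brg1+/+ cells, and Prg3 5.48 and 6.86. In mTEChi, Zar1 read 10.24 and 10.43 in Brg1-/- cells, against 10.98 and 10.51 in Brg1+/+ cells. Prg3 read 10.39 and 10.45 there, against 10.18 and 10.07. For both genes the genotypes thus lay farther apart in mTEClo, with 1 array each, than in mTEChi.

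**Figure D4:**
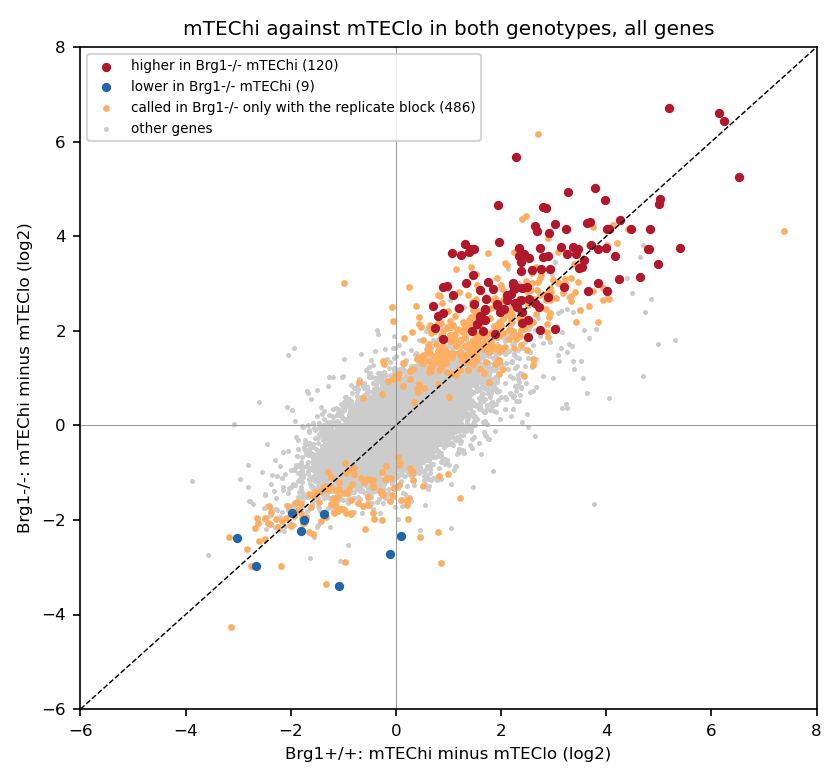
Log2 difference of mTEChi from mTEClo for each gene in Brg1-/- cells (vertical) against Brg1+/+ cells (horizontal), with genes called in Brg1-/- cells in red (120 higher) and blue (9 lower) and genes called with the replicate block alone in orange. The dashed line marks equal differences. All red points lie to the right of 0, and their median is 3.28 in Brg1-/- and 2.51 in Brg1+/+ cells. The red genes were chosen for large Brg1-/- differences, which favours the larger median there.

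A last comparison, added after the values were seen, set the Brg1-/- difference against that of the arrays labelled Aire-/-. The Aire probe set read 9.01 and 9.73 in mTEChi and 6.72 in mTEClo labelled Aire-/-, so it does not check that label. The lines may differ in more than the gene lost, which the labels do not tell. Of the 120 genes higher in Brg1-/- mTEChi, 86 had both mTEChi arrays labelled Aire-/- above their mTEClo array (25.6% of all genes did), and 55 had a difference under 1 there. Their median was 3.28 in Brg1-/- cells and 1.34 in cells labelled Aire-/-. The median of all genes in cells labelled Aire-/- was -0.10, so most genes had a difference under 1 there. The 120 were chosen for large Brg1-/- differences, which favours a smaller median in any other cells. The families parted: the Klk1b kallikreins had a median of 2.85 in Brg1-/- cells and 2.14 in cells labelled Aire-/-, while the major urinary and odorant-binding proteins had 2.92 and 0.02. In Brg1+/+ cells these lists had medians of 2.58 and 2.28, so the high medians are not particular to Brg1-/- cells. Klk1b9 differed by 3.72 in Brg1-/- cells and by 5.06 in cells labelled Aire-/-.

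In the test of this difference 0 genes were called without the block (limma, 500 at an unadjusted p under 0.05, where 0.05 of all genes is 1108). With it 25 were called (0.113% of all genes), all larger in Brg1-/- cells than in cells labelled Aire-/-. Their differences of differences ranged from 3.27 to 7.84, with a median of 4.28, and 19 of them were among the 120. Each of the 120 also had both Brg1+/+ mTEChi arrays above Brg1+/+ mTEClo, so the rises of these 19 are not particular to Brg1-/- cells. In Brg1+/+ cells Mup20 differed by 5.03 and Defa21 by 3.64. The Brg1+/+ difference was not tested against that of the arrays labelled Aire-/-. With a block common to both lines 44 were called (0.199%), 42 of them larger in Brg1-/- cells (0.19%) and 2 smaller (0.00903%), and 21 of the 25 were among those. Mup20 read 8.05 and 7.21 in mTEChi and 2.85 in mTEClo of Brg1-/- cells, against 4.80 and 3.73 in mTEChi and 6.19 in mTEClo labelled Aire-/- (difference of differences 6.94 with the block, adjusted p = 0.0104). For Defa21 the readings labelled Aire-/- were 4.21 and 3.78 in mTEChi and 4.39 in mTEClo, and the difference of differences was 4.69 (adjusted p = 0.0394 with the block). The late cornified envelope gene Lce3a read 10.43 and 10.10 in mTEChi and 9.39 in mTEClo of Brg1-/- cells, against 4.51 and 4.00 in mTEChi and 7.52 in mTEClo labelled Aire-/-. Its difference was 0.88 in Brg1-/- cells and -3.27 in cells labelled Aire-/-, and the difference of differences was 4.33 with the block (adjusted p = 0.0394).

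**Figure D5:**
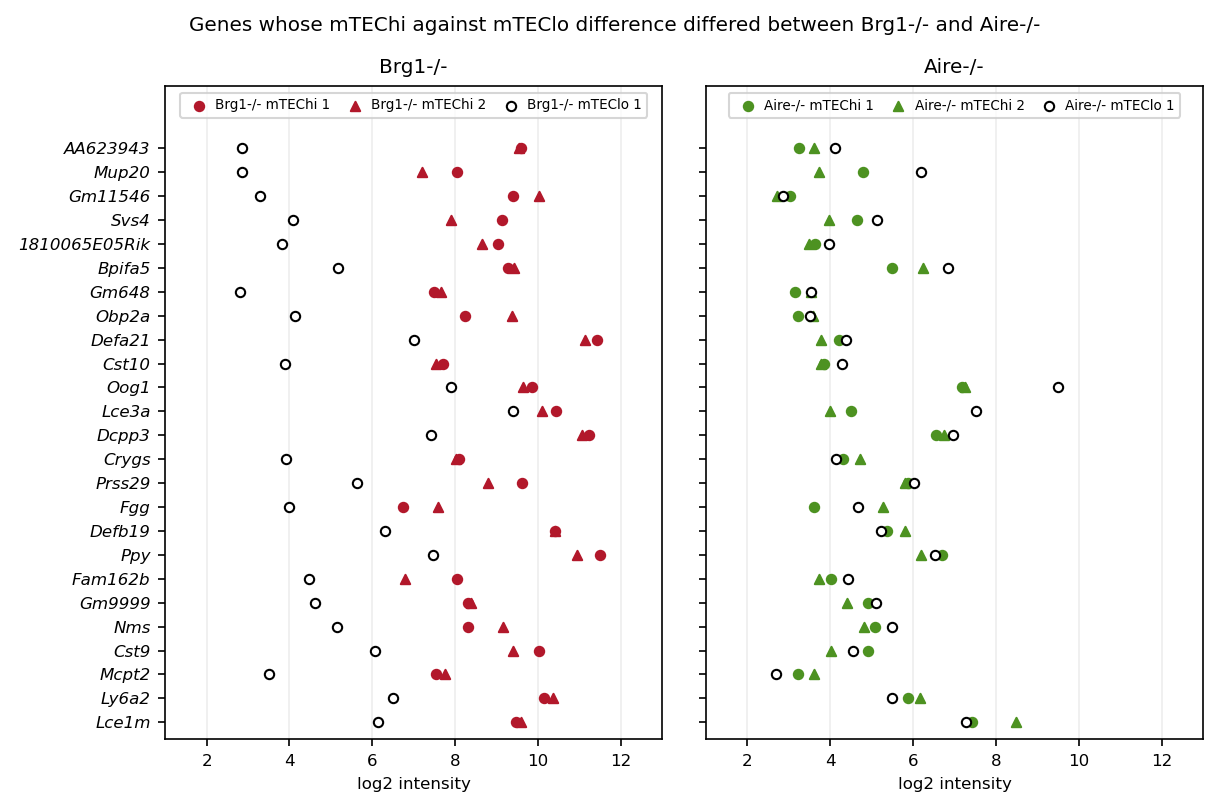
Log2 intensity on each array (horizontal) of the 25 genes whose mTEChi against mTEClo difference was larger in Brg1-/- cells (left) than in cells labelled Aire-/- (right) with the replicate block. Filled circles and triangles are mTEChi arrays 1 and 2 and open circles the single mTEClo array; on the left every mTEChi array lies to the right of mTEClo, and on the right those of Mup20, Oog1 and Lce3a, among others, lie to its left.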

How the data were processed

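RNA from sorted mTEChi and mTEClo was hybridised to 12 biotin-labelled Affymetrix arrays. The authors deposited a table of linear intensities for 33732 probe sets. Tools listed in the submitters' processing notes are Affymetrix Expression Console, RMA and Transcriptome Analysis Console, with neither roles nor versions, and no source says whether the arrays were normalized as 1 set. The intensities equal 2 raised to numbers with a step of 0.01, so log2 values were used with no pseudocount or further normalization. The 23491 probe sets with 1 gene symbol gave 22154 genes, keeping the probe set with the highest mean. No detection p was used.

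Groups followed the labels. limma 3.58.1 in R 4.3.3 (lmFit, eBayes) fitted 8 group means over 12 arrays (4 residual and 3.46 prior degrees of freedom), two-sided, with Benjamini-Hochberg adjustment over all genes. SE is limma's moderated standard error. The spread of each lone mTEClo array was taken to equal that of the mTEChi groups. Deviations of same-numbered mTEChi arrays correlated in all 6 pairs of groups (r from 0.552 to 0.657), so a fit with the number as a block within each line is printed beside results. The block fit has 2 residual and 5.14 prior degrees of freedom, so its p-values rest on little replication. The steps were tested on simulated arrays.

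Members, comparisons and the 29 gene lists were chosen with earlier results of these data known, so counts over lists are descriptions. Named were Cd80, Cd86, Aire and Smarca4, the 12 largest rises and falls among calls, up to 5 each way for the wild type and the difference, and up to 4 genes of smallest p per list, leaving out predicted genes, clone names, small RNAs, olfactory, vomeronasal and antigen receptor genes and sex-linked genes. Falls short of 12 were filled by the gap to mTEClo. Cdca7l and the genes named against the arrays labelled Aire-/- were chosen after their values were seen, as were a few list members beyond the 4. Promoters are from RefSeq (GRCm38.p6), the first listed per gene. Alternatives were other scalings, a filter at a mean of 5, the mean over probe sets, an intensity trend, the Brg1 line alone, arrays numbered 1 alone and each mTEChi array left out.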

Additional observations from a re-analysis of the deposited data

Results flagged for a closer look

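The cell cycle list had medians of opposite sign in the genotypes without the block. Over 28 measured genes the median difference of mTEChi from mTEClo was -0.20 in Brg1-/- cells and 0.23 in Brg1+/+ cells, a gap between the medians of -0.43. The median over the genes' own differences of differences was -0.24. With the replicate block the list medians were -0.30 in Brg1-/- cells and 0.02 in Brg1+/+ cells. In Brg1-/- cells the list median, without the block, was -0.21 for array 1 and -0.05 for array 2, against 0.07 and 0.12 in Brg1+/+ cells. This difference between the genotypes was not tested for the list, and 0 of its genes were called in any comparison. Cdc20, an activator of the anaphase-promoting complex, stood at 6.24 and 6.67 in Brg1-/- mTEChi and 7.34 in Brg1-/- mTEClo, against 6.35 and 7.37 in Brg1+/+ mTEChi and 6.41 in Brg1+/+ mTEClo.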

How the results depend on the processing

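For the counts at an unadjusted p under 0.05 in this paragraph, 0.05 of all genes is 1108. The count of genes called in Brg1-/- mTEChi against Brg1-/- mTEClo was 129. With the replicate block it was 615, with a replicate block common to both lines 670, with the Brg1 line alone 30 and with arrays numbered 1 alone 0 (1242 at an unadjusted p under 0.05). Leaving out 1 mTEChi array gave 0 to 91 calls. For Brg1+/+ cells the count was 80, and 552, 708, 19 and 0 under the same alternatives, with 6 to 52 when an array was left out. Median centring, quantile normalization, the filter on dim genes, the mean over probe sets and the intensity trend gave 105 to 153 calls in Brg1-/- cells. The difference between the genotypes had 0 limma calls under every alternative run, arrays left out and the mean of both wild types included, with 182 to 1250 genes at an unadjusted p under 0.05. The difference from the arrays labelled Aire-/- had 0 calls, 25 with the replicate block and 44 with the common one, and 0 to 1 with an array left out. Smarca4, which did not pass, had a difference of 0.19, and of -0.03 without Brg1-/- mTEChi replicate 1 and 0.41 without replicate 2. With arrays numbered 1 alone, 19 of 58 list medians moved by more than the spread and 39 did not. The limits are that each mTEClo group has 1 array, so its own spread is unknown, that signal over background was not measured for dim genes, and that a lone array leaves the test few degrees of freedom.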

Other observations

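Some of the rises lay near each other in the genome. By gene order in RefSeq (GRCm38.p6), 39 of the 120 genes called higher in Brg1-/- mTEChi had another such gene among the 5 tested genes on either side, in 14 groups. The longest held 6 kallikreins on chromosome 7 (Klk1b8, Klk1b1, Klk1b9, Klk1b11, Klk1b27 and Klk1b22). A group of 5 on chromosome 8 held Defa21, Defa22, AY761185 and 2 predicted genes. Groups of 3 were Reg3b, Reg2 and Reg1 on chromosome 6, and the milk protein genes Csn1s1 and Csn2 with the sulfotransferase gene Sult1e1 on chromosome 5. These genes were named after their calls were seen, members of a family may share probes, and neither a share for other genes nor a test of clustering was computed.

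The acute-phase gene Saa2 stood at 11.50 and 11.38 in Brg1-/- mTEChi and 8.92 in Brg1-/- mTEClo, against 11.59 and 10.80 in Brg1+/+ mTEChi and 10.50 in Brg1+/+ mTEClo. Gbp4, an interferon-induced GTPase gene, stood at 7.65 and 7.20 in Brg1-/- mTEChi and 6.14 in Brg1-/- mTEClo, against 7.79 and 7.67 in Brg1+/+ mTEChi and 5.12 in Brg1+/+ mTEClo; it was called in Brg1-/- cells with the block only (difference 1.43, adjusted p = 0.0449) and in Brg1+/+ cells without it (2.61, adjusted p = 0.0241). The difference between the genotypes was not called for either gene.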
